A study of Mus musculus with 105 samples.

Results

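Gene expression in healthy mouse spleen was set against that in 11 other healthy organs. The 4 spleen libraries are those whose source name is spleen, out of 105 libraries in the series. They were compared with the 44 healthy libraries of lymph node (LN), thymus, lung, liver, colon, stomach, kidney, heart, brain, skin and ovary, 4 of each. The series as a whole asks about tumour antigens formed where exons are spliced to transposable elements, and its remaining libraries were not used here.

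All 48 libraries came from healthy female C57BL/6 mice labelled wild type (WT), with no treatment and no engineered allele in the labels. The sources used here give neither the age of the mice nor the site of the lymph nodes, and they do not say whether the 4 libraries of an organ came from separate mice, or whether libraries of different organs came from the same mouse. The p-values therefore measure only the spread between libraries, which may be technical. Organs were kept in RNAlater, a solution that preserves RNA, and polyA RNA was sequenced from strand-specific libraries. Levels are given in CPM, the usual scaling of a gene's counts to the total of its library. By the library totals, 1 CPM rested on between 66.4 and 110.0 counts in the spleen libraries and on between 53.6 and 254 counts in the others. Values after ± are standard deviations (SD) over the 4 libraries of a tissue, and SE is the standard error of a log2 fold.

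The spleen filters blood. In its red pulp, macrophages engulf worn red cells, break down their haem and return the iron to the circulation. The white pulp holds follicles of B cells and sheaths of T cells around small arteries, and the marginal zone between the pulps holds macrophages and B cells that meet blood-borne particles. In mice the red pulp also keeps making red cells and platelets in adult life.

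The tissue label was checked against genes that define the organ. Spic, the transcription factor on which red pulp macrophages depend, measured 146, 119, 109 and 121 CPM in spleen replicates 1 to 4, and 21.6 to 32.5 CPM in LN, the next tissue. Tlx1, without which no spleen forms in mice, measured 57.2, 45.2, 39.1 and 37.8 CPM in spleen and averaged 0.0413 CPM in LN. Every spleen library was above every LN library for both genes. Tlx1 was higher in skin than in any spleen library, so it separates spleen from LN but not from skin. Glycam1, a mucin of LN venules, averaged 0.490 CPM in spleen and 2692 CPM in LN, and Rag1, the recombinase of developing lymphocytes, 0.489 CPM in spleen and 2181.7 CPM in thymus.

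Spleen replicate 4 also carried transcripts of the exocrine pancreas, an organ that lies against the spleen. The summed level of 16 listed digestive enzyme genes was 26.7, 17.3, 30.9 and 7170.3 CPM in spleen replicates 1 to 4, so among the spleens replicate 4 alone was high. The same genes summed to 16185 to 36062 CPM in the stomach libraries and to 1175 to 2390 CPM in the colon libraries. Listed islet hormone genes summed to 3.07 CPM in replicate 4 and to at most 0.0575 CPM in the other 3. All 15 pancreatic enzyme genes tested were called higher in spleen than in the mean of the 11 tissues and than in LN with 4 spleen libraries. Without replicate 4, 1 was called higher than the mean and 1 higher than LN. These genes are not described further as genes of spleen, and leading counts are also given without that library.

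Many genes differed between spleen and the other organs, in numbers that depended on the comparison. A gene was called where edgeR's quasi-likelihood test gave a Benjamini-Hochberg adjusted p under 0.05 over 26242 genes. Against the mean of the 11 tissues 8939 genes were called higher (34.1%) and 8130 lower (31%), together 65% of those tested, with a median log2 fold over all tested genes of -0.14. Calls numbered 7734 against a 2-fold minimum, and 3904 with the 44 other libraries taken as 1 group. LN was the nearest of the 2 other lymphoid organs, with 2803 genes called higher (10.7%) and 3394 lower (12.9%) in spleen, together 23.6% (median -0.02). Against thymus 5785 were called higher (22%) and 7708 lower (29.4%), together 51.4%, with a median of -0.15. A stricter test, which takes the largest p of the 11 comparisons, called 136 genes (0.518%) higher in spleen than in each of the 11 tissues and 91 (0.347%) lower than in each. A gene that missed this test is not shown to be level with another tissue. Without spleen replicate 4, 111 of the 136 were still called, as were 8291 of the 8939 genes called higher than the mean, 2286 of the 2803 higher than LN and 5342 of the 5785 higher than thymus.

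**Figure D1:**
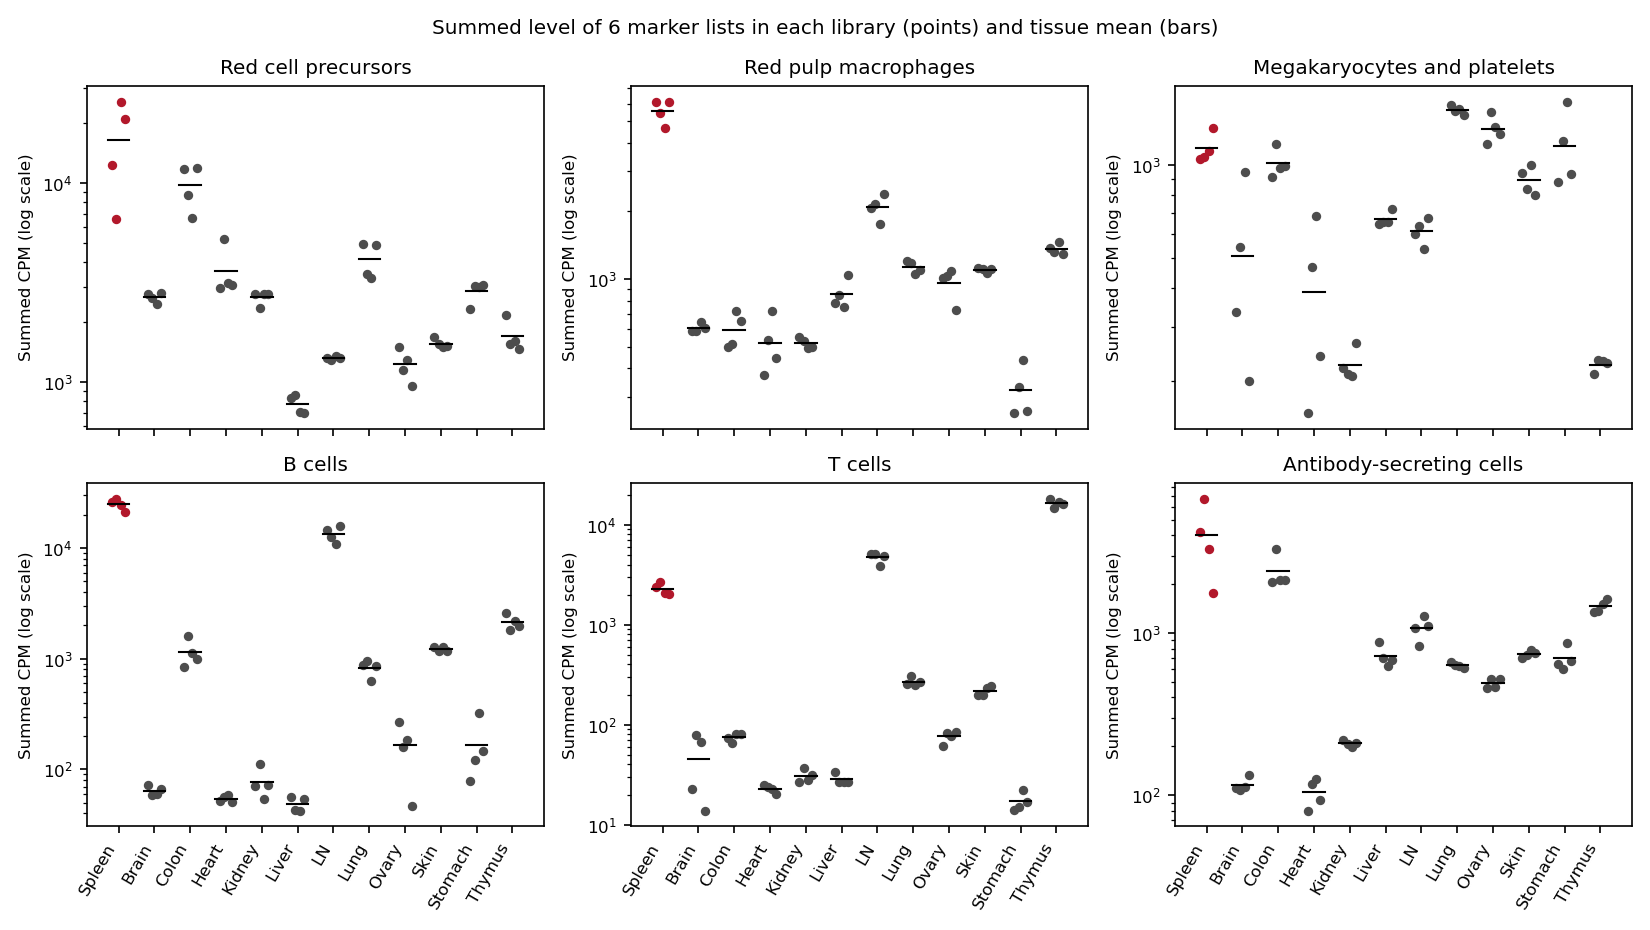
Summed level of 6 marker lists (vertical axes, CPM on a log scale) in each library (points, 4 per tissue) with the tissue mean (bars), spleen in red at the left of each panel. Red pulp macrophage genes summed to 4655 to 6123 CPM in spleen, above all 44 other libraries, and T cell genes were lower in spleen than in LN and thymus.

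The 136 genes higher in spleen than in each tissue held many genes of the red pulp. Of them 18 were among the 47 tested red cell precursor genes and 12 among the 25 red pulp macrophage genes. The list of 25 complement and Fc receptor genes held 6, and that of 30 megakaryocyte and platelet genes 5. Among all tested genes 0.518% were called. The lists were chosen with earlier results of these data known, so these counts are a description and no independent support. The lists of T cells, general B cell genes and embryonic patterning factors gave none, and 90 genes were on no list. LN was the next highest tissue for 62 of the 136, lung for 31 and thymus for 19. In 118 of the 136 the lowest spleen library lay above all 44 others, which held for 425 of all tested genes (1.62%). The smallest of the 11 log2 folds was at least 1 in 111 of the 136.

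Red pulp macrophage genes were high in all 4 spleens. Their summed level was 6123, 5447, 4655 and 6108 CPM in spleen replicates 1 to 4, 1751 to 2371 CPM in LN and 1293 to 1454 CPM in thymus. No spleen library overlapped a library of another tissue. Of 25 genes, 25 were called higher and none lower in spleen than in the mean of the 11 tissues (median log2 fold 2.68). Against LN 24 were called higher and 1 lower (median 1.36), and against thymus 24 were called higher and none lower (median 2.22). Without spleen replicate 4, 25 were called higher than the mean and 22 higher than LN. In whole organs, fewer cells of a type and less RNA per cell cannot be told apart. Of the 12 members higher than in each tissue, 7 were called without spleen replicate 1 and 10 without replicate 4.

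Hmox1, Slc40a1 and Slc11a1, which take part in haem and iron recycling, were higher in spleen than in LN. Hmox1, the haem oxygenase that opens the haem ring, measured 877, 585, 594 and 726 CPM in spleen and 47.99 to 67.1 CPM in LN (log2 fold 3.62, SE 0.25, edgeR adjusted p = 3.61e-14). Every spleen library was above every LN library. Its smallest log2 fold over any tissue was 3.36, against liver (edgeR adjusted p = 5.81e-12). Slc40a1, ferroportin, which exports iron from cells, measured 614, 527, 441 and 667 CPM in spleen and 17.9 to 24.2 CPM in LN (log2 fold 4.82, SE 0.24, edgeR adjusted p = 8.05e-18). Colon, the next tissue, had 126 to 294 CPM, and Slc40a1 was not called higher than each tissue (smallest log2 fold 0.39, against liver, SE 0.20, edgeR adjusted p = 1). Slc11a1, a metal transporter of the phagosome, measured 88.1, 89.2, 68.1 and 116 CPM in spleen and 26.6 to 39.2 CPM in LN, and was among the 136.

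Other members mark the macrophage itself. Vcam1, an adhesion molecule that red pulp macrophages and stroma carry, measured 654, 711, 531 and 841 CPM in spleen and 195 to 236 CPM in thymus, the next tissue (smallest log2 fold 1.75, against thymus, SE 0.22, edgeR adjusted p = 1.67e-06). Itgad, the integrin alpha D chain, measured 112, 134, 93.0 and 175 CPM in spleen and 9.06 to 11.5 CPM in thymus (smallest log2 fold 3.69, against thymus, SE 0.45, edgeR adjusted p = 1.63e-06). Spic, with the values given above, had its nearest tissue in LN (smallest log2 fold 2.14, against LN, SE 0.30, edgeR adjusted p = 1.8e-05). In these 3 genes the lowest spleen library was above all 44 others. Csf1r, the receptor for the growth factor of macrophages, measured 607, 669, 477 and 729 CPM in spleen and 252 to 384 CPM in LN (log2 fold 0.96, SE 0.22, edgeR adjusted p = 0.00127). Cd5l, a protein that macrophages secrete, measured 168, 117, 119.8 and 121 CPM in spleen and 84.3 to 151 CPM in liver. Spleen and liver overlapped for Cd5l. Timd4, a receptor for dying cells, averaged 82.1 ± 15.99 CPM in spleen and 249 ± 45.4 CPM in LN (n = 4 each) and was the 1 member called lower (log2 fold -1.62, SE 0.36, edgeR adjusted p = 0.000821).

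Complement and Fc receptor genes were mixed in the comparison with LN. C1qb, a chain of the first complement component, averaged 312.1 ± 57.8 CPM in spleen and 169 ± 23.7 CPM in thymus (n = 4 each), the next tissue (smallest log2 fold 0.90, against thymus, SE 0.19, edgeR adjusted p = 0.00726). Of 25 complement and Fc receptor genes, 10 were called higher and 3 lower in spleen than in LN (median log2 fold 0.26), and 12 were not called. Their summed level averaged 5183 CPM in spleen, 6149 CPM in LN and 17807 CPM in liver. Cfp, properdin, which stabilises the alternative pathway, and Fcer1g, the signalling chain of Fc receptors, were both among the 136, with log2 folds over LN of 1.16 and 1.11.

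The iron genes as a whole were mixed. Of 26, 12 were called higher and 8 lower in spleen than in the mean of the 11 tissues (median log2 fold 0.27). Among all tested genes 34.1% were called higher and 31% lower in that comparison. Against LN 13 of the 26 were called higher and 3 lower (median 0.74), beside 10.7% and 12.9% of all tested genes. The 26 genes summed to 5698 ± 735 CPM in spleen, 5875 CPM in kidney and 11599 CPM in liver, an organ that stores iron. Ftl1, the ferritin light chain, measured 1236, 935, 1097 and 1196 CPM in spleen and 612 to 712 CPM in LN (log2 fold 0.81, SE 0.17, edgeR adjusted p = 0.00045). Fth1, the heavy chain, averaged 1463 ± 243 CPM in spleen and 1169 ± 59.7 CPM in LN (n = 4 each) and was not called (log2 fold 0.33, SE 0.15, edgeR adjusted p = 0.103). Without spleen replicate 2 it was called (log2 fold 0.44, adjusted p = 0.0331).

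Genes of marginal zone macrophages were divided in the comparison with LN, whose sinuses hold related cells. Of 8 listed genes, 8 were called higher and none lower than in the mean of the 11 tissues, but against LN 2 were called higher and 4 lower (median log2 fold -1.04). Marco, a scavenger receptor, measured 329.8, 223, 179 and 251.3 CPM in spleen and 215 to 485 CPM in LN, which overlapped (log2 fold -0.51, SE 0.50, edgeR adjusted p = 0.505). Cd209b, the lectin SIGN-R1, measured 33.3, 31.0, 15.4 and 35.6 CPM in spleen and 300.1 to 479.9 CPM in LN (log2 fold -4.01, SE 0.65, edgeR adjusted p = 8.24e-06). Siglec1, the sialic acid receptor of metallophilic macrophages, measured 64.2, 104, 48.8 and 129 CPM in spleen and 206 to 349 CPM in LN (log2 fold -1.57, SE 0.37, edgeR adjusted p = 0.0016). For Cd209b and Siglec1 every spleen library was below every LN library.

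Red cell precursor genes set spleen apart from the other organs and also differed between spleens. Their summed level was 12335, 6561, 25578 and 20935 CPM in spleen replicates 1 to 4 and 1279.7 to 1344 CPM in LN. Colon had the next highest sum, 9723 CPM on average, of which 7858 CPM came from Car1, a carbonic anhydrase that colon epithelium also makes. The colon libraries lay at 6674 to 11827 CPM, so that spleen replicate 2 was below all of them. Of 47 genes tested, 43 were called higher and 1 lower in spleen than in the mean of the 11 tissues (median log2 fold 5.39), and against LN 43 were called higher and none lower (median 5.82). Without spleen replicate 4, 43 were called higher than the mean and 42 higher than LN. Of the 18 members higher than in each tissue, 15 were called without that library.

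In 45 of the 47 genes both replicates 1 and 2 lay below replicates 3 and 4. The same order held for 12 of 22 neutrophil genes, 12 of 20 interferon-stimulated genes, 9 of 30 megakaryocyte and platelet genes and 5 of 14 mast cell and basophil genes. It held for 8 of 26 iron genes, 0 of 27 T cell genes and 0 of 28 B cell genes. The share of all tested genes with this order was not computed. Rhag, the Rh-associated glycoprotein of the red cell membrane, measured 21.96, 4.58, 95.7 and 104 CPM in spleen and 0.155 to 1.62 CPM in lung, the next tissue. It was at 0 counts in all 4 LN libraries, so the spleen mean was at least 6048-fold higher, taking 3 counts over the 4 LN libraries as the floor. Replicate 2 was the lowest spleen library for Rhag and still lay above all 44 others. Klf1, the factor that switches on adult globin genes, measured 29.5, 5.49, 136 and 108 CPM in spleen and 4.17 to 5.68 CPM in liver (smallest log2 fold 2.47, against liver, SE 0.60, edgeR adjusted p = 0.0385). Epor, the erythropoietin receptor, measured 22.2, 8.75, 72.7 and 55.3 CPM in spleen and 7.07 to 7.51 CPM in LN (smallest log2 fold 2.32, against kidney, SE 0.39, edgeR adjusted p = 0.000294). Klf1 and Epor were again lowest in replicate 2.

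Globin and haem synthesis genes, which circulating young red cells also carry, were present in other organs. Hbb-bs, an adult beta globin, measured 5519, 2772, 9191 and 6471 CPM in spleen, 575 to 1517 CPM in lung and 8.33 to 50.5 CPM in LN (log2 fold 7.91, SE 0.78, edgeR adjusted p = 4.07e-10). It was not called higher than each tissue (edgeR adjusted p = 0.173), although every spleen library was above every lung library. Hbb-bs and Hbb-bt, and likewise Hba-a1 and Hba-a2, are near copies, so the division of reads within each pair is uncertain. Alas2, the first enzyme of haem synthesis in red cell precursors, measured 318.2, 246, 697 and 715 CPM in spleen and 46.6 to 118 CPM in lung, and was not called higher than each tissue (edgeR adjusted p = 0.101). The highest spleen library exceeded the lowest 3.32-fold for Hbb-bs and 22.7-fold for Rhag.

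Genes of dividing cells had the same order of libraries. The summed level of 22 genes was 1335, 996, 3322 and 2847 CPM in spleen replicates 1 to 4, 648 to 1074 CPM in LN and 3510.1 to 4589 CPM in thymus. All 22 were lower in replicates 1 and 2 than in replicates 3 and 4. Against LN 22 were called higher and none lower (median log2 fold 1.46), with 14 called higher without spleen replicate 3, 10 where spleen and LN were fitted without the other tissues and 4 against a 2-fold minimum. Against thymus none was called higher and 11 lower (median -0.85). Mki67, a protein of dividing nuclei, measured 175.7, 134, 584 and 576 CPM in spleen and 63.3 to 116 CPM in LN (log2 fold 2.25, SE 0.46, edgeR adjusted p = 0.000267). Top2a, which untangles DNA at division, measured 114, 98.9, 284 and 277 CPM in spleen and 58.9 to 106 CPM in LN (log2 fold 1.44, SE 0.42, edgeR adjusted p = 0.0106), a call lost without spleen replicate 3 (adjusted p = 0.0575) or where spleen and LN were fitted alone (adjusted p = 0.0527). The part of red cell precursors in these values was not tested.

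**Figure D2:**
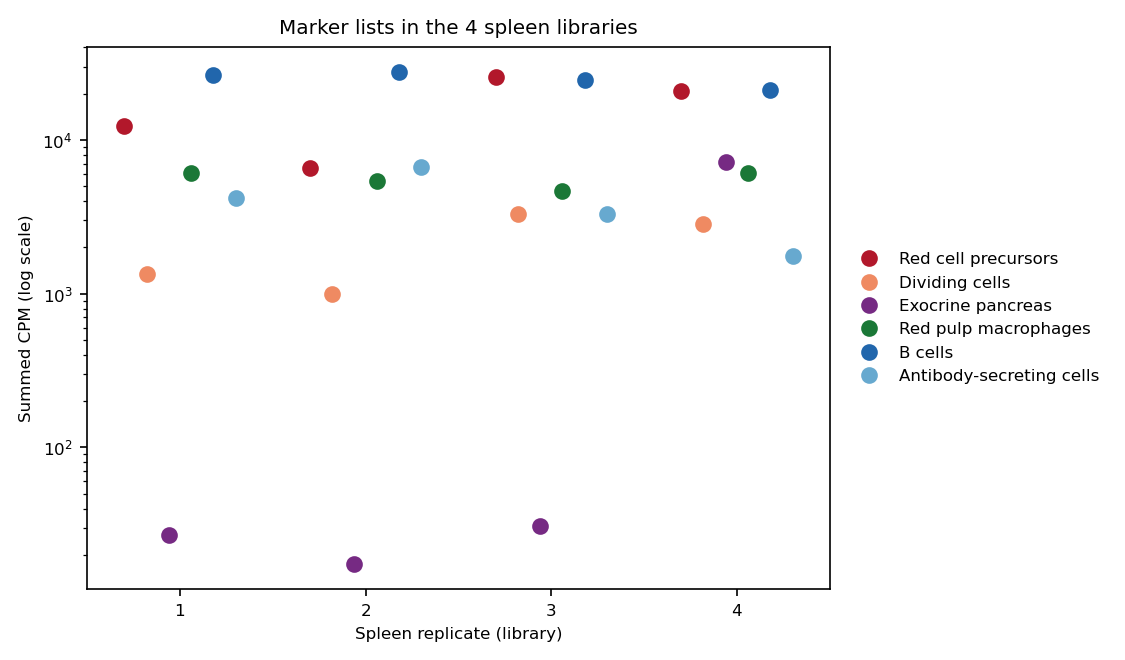
Summed level of 6 marker lists (vertical axis, CPM on a log scale) in the 4 spleen libraries (horizontal axis, 1 point per list and library, shifted sideways to stay visible). Red cell precursor and dividing cell genes were lower in replicates 1 and 2 than in replicates 3 and 4, and the exocrine pancreas list reached 7170.3 CPM in replicate 4.

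Promoters of leading red cell genes are shown because GATA1, the main transcription factor of red cell precursors, is known to recognise the letters AGATAA and TGATAA. Windows from 250 bases before to 50 after the annotated start were taken from RefSeq (GRCm38.p6) and searched on both strands. The 4 genes are among the 20 with the largest fold over the next tissue, and capitals mark either word on the strand shown or on the opposite strand. The Rhag window lies at chr17:40810899-40811198 on the plus strand, that of Kel at chr6:41704276-41704575 on the minus strand, that of Trim10 at chr17:36869324-36869623 on the plus strand and that of Tspo2 at chr17:48451452-48451751 on the minus strand.
Rhag: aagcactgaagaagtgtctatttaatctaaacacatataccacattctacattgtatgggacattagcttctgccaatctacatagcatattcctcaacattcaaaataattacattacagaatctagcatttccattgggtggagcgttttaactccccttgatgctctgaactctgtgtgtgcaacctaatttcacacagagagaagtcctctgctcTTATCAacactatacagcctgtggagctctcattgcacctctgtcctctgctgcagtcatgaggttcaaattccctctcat
Kel: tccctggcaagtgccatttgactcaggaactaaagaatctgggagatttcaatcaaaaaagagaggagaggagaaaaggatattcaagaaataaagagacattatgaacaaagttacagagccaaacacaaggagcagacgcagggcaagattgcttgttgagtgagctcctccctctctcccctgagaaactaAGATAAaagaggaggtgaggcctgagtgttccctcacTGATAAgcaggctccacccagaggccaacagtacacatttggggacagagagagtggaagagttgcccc
Trim10: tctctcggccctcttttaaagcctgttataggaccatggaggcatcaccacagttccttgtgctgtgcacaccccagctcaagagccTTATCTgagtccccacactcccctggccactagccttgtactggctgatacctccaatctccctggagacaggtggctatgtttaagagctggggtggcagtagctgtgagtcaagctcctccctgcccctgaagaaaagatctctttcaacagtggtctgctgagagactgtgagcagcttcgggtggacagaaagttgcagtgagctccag
Tspo2: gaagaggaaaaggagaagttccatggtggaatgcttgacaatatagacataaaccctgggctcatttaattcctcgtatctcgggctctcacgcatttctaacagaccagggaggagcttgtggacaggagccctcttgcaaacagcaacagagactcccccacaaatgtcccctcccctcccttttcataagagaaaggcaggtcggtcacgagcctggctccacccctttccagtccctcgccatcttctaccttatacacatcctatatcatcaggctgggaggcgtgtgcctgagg
Rhag held 1 match, Kel 2, Trim10 1 and Tspo2 0. Epb42, which ranks between Trim10 and Tspo2 by fold over the next tissue, held 1 match and is not shown. Kel, the Kell blood group protein, measured 27.8, 7.49, 144 and 148 CPM in spleen and 0.388 to 3.47 CPM in lung. Trim10, a protein needed for red cell maturation in mouse cells, measured 28.6, 11.8, 123 and 141 CPM in spleen and 0.839 to 3.48 CPM in lung. Tspo2, a membrane protein of red cell precursors, measured 18.8, 4.11, 65.1 and 48.9 CPM in spleen and 0.547 to 0.942 CPM in colon. Replicate 2 was the lowest spleen library for all 3 genes. A relation between matches and levels was not tested.

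Either word was found in 11 of 14 windows (78.6%) of the red cell precursor genes among the 136. For all of the 136 it was found in 43 of 119 windows (36.1%), from the 93 genes that had a window. Without the red cell precursor genes it was found in 32 of 105 windows (30.5%). Of these, red pulp macrophage genes had it in 1 of 5 windows. Among 32817 windows of all genes the share was 18.6%. A match is a description of the letters and not a site shown to be bound.

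Mir451a, the gene of a microRNA that is abundant in red cell precursors, was also among the 20. The mature sequence (RefSeq, GRCm38.p6, chr11:78073186-78073207 on the plus strand) is shown with its seed, bases 2 to 8, in capitals.
mmu-miR-451a: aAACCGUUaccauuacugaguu
Reads over the gene measured 0.904, 0.209, 3.25 and 3.76 CPM in spleen and 0 to 0.0689 CPM in lung, and were at 0 in all LN and thymus libraries. They come from polyA RNA, so they do not measure the mature microRNA. Replicate 2 was again the lowest spleen. The gene was called by edgeR (smallest log2 fold 6.29, against lung, SE 1.00, adjusted p = 0.00291) but not by DESeq2.

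Megakaryocyte and platelet genes were higher in spleen than in LN and thymus. Of 30, 20 were called higher and 1 lower than in LN (median log2 fold 2.28), and 27 were called higher and none lower than in thymus (median 3.31). Their summed level was 1041, 1058, 1111 and 1313 CPM in spleen and 1445 to 1561 CPM in lung, an organ where megakaryocytes also lodge. On average ovary (1309 CPM) and stomach (1153 CPM) were also above spleen (1131 CPM). Ppbp, a platelet chemokine, measured 74.2, 74.7, 78.3 and 113 CPM in spleen, 7.80 to 16.7 CPM in lung and 0.123 to 2.00 CPM in LN (log2 fold 7.62, SE 0.80, edgeR adjusted p = 1.53e-09). Without LN replicate 4 its log2 fold over LN was 9.25. No spleen library overlapped lung or LN. Gp9, a chain of the platelet receptor for von Willebrand factor, measured 10.0, 7.62, 15.3 and 13.6 CPM in spleen and 1.85 to 3.95 CPM in lung, and was not called higher than each tissue (edgeR adjusted p = 0.0978). Itga2b, the platelet integrin alpha chain, averaged 53.3 ± 7.14 CPM in spleen and 42.5 ± 11.8 CPM in LN (n = 4 each) and was not called (log2 fold 0.34, SE 0.31, edgeR adjusted p = 0.471).

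Transcription factors that pattern the spleen in the embryo separated it from LN, but each was also found in another organ. Of 15 tested genes, 10 were called higher and 2 lower in spleen than in LN (median log2 fold 7.79). Nkx2-5, which also directs heart development, measured 14.5, 9.02, 10.97 and 7.09 CPM in spleen and 54.5 to 92.2 CPM in heart. It was at 0 counts in all 4 LN libraries, so the spleen mean was at least 1113-fold higher by the same floor. Nkx2-3, whose loss disturbs spleen and gut lymphoid tissue in mice, measured 30.4, 25.0, 23.8 and 21.3 CPM in spleen and 21.8 to 26.6 CPM in colon, with 1 count over the 4 LN libraries. Spleen and colon overlapped for Nkx2-3. Tcf21, a factor of organ mesenchyme, measured 92.9, 70.99, 65.9 and 69.1 CPM in spleen and 111 to 128 CPM in lung, with 1 count in LN. Wt1, which mesothelium and gonad also use, measured 32.5, 29.1, 21.3 and 31.2 CPM in spleen and 105 to 193 CPM in ovary. Tlx1 was higher in skin, at 80.9 to 106 CPM, than in any spleen library.

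Stromal genes of lymphoid tissue were divided. Of 29, 5 were called higher and 14 lower in spleen than in LN (median log2 fold -0.46), and 21 were called higher and 5 lower than in thymus. Coch, cochlin, a secreted protein of follicular dendritic cells and the inner ear, measured 1311, 1196, 988 and 1085 CPM in spleen, 189 to 245 CPM in skin and 2.15 to 4.47 CPM in LN (log2 fold 8.35, SE 0.54, edgeR adjusted p = 8.13e-15). All spleen libraries were above all 44 others. Dll1, the Notch ligand that marginal zone B cells need, averaged 72.98 ± 7.25 CPM in spleen and 12.2 ± 1.34 CPM in LN (n = 4 each, log2 fold 2.68, SE 0.21, edgeR adjusted p = 1.43e-12). Cxcl13, the chemokine that draws B cells into follicles, measured 172, 142, 139 and 132 CPM in spleen and 140.1 to 199.5 CPM in LN, and was not called (log2 fold -0.43, SE 0.64, edgeR adjusted p = 0.694). Ccl21a, which draws T cells and dendritic cells, measured 253.5, 218, 215 and 147 CPM in spleen and 604 to 891 CPM in LN (log2 fold -1.91, SE 0.23, edgeR adjusted p = 3.41e-08). Mouse Ccl21 genes are near copies, so the division of their reads is uncertain.

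Genes of lymphatic vessels and high endothelial venules (HEV), which bring lymphocytes into lymph nodes, were lower in spleen than in LN. Of 17 tested, 1 was called higher and 12 lower than in LN (median log2 fold -1.91), and their summed level was 633, 709, 606 and 606 CPM in spleen and 3694 to 4627 CPM in LN. Against thymus 8 were called higher and 3 lower (median 1.24). Against the mean of the 11 tissues 7 were called higher and 7 lower (median -0.20). Glycam1 measured 0.105, 0.482, 1.35 and 0.0213 CPM in spleen and 2367 to 3085 CPM in LN (log2 fold -12.73, SE 1.17, edgeR adjusted p = 3.37e-09), with a log2 fold of -13.89 without spleen replicate 3. Lyve1, a hyaluronan receptor of lymphatic endothelium, averaged 1.99 ± 0.558 CPM in spleen and 107 ± 13.9 CPM in LN (n = 4 each, log2 fold -5.91, SE 0.47, edgeR adjusted p = 1.84e-12). No spleen library overlapped LN for either gene. Madcam1, an addressin that the spleen's marginal sinus also carries, measured 23.4, 18.5, 29.8 and 18.6 CPM in spleen and 5.46 to 11.8 CPM in LN (log2 fold 1.30, SE 0.43, edgeR adjusted p = 0.0238). That call was lost without spleen replicate 3 (adjusted p = 0.0903), LN replicate 2 (adjusted p = 0.0794) or LN replicate 3 (adjusted p = 0.107). It was also lost in the fit with a block for library-number set (adjusted p = 0.0711).

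**Figure D3:**
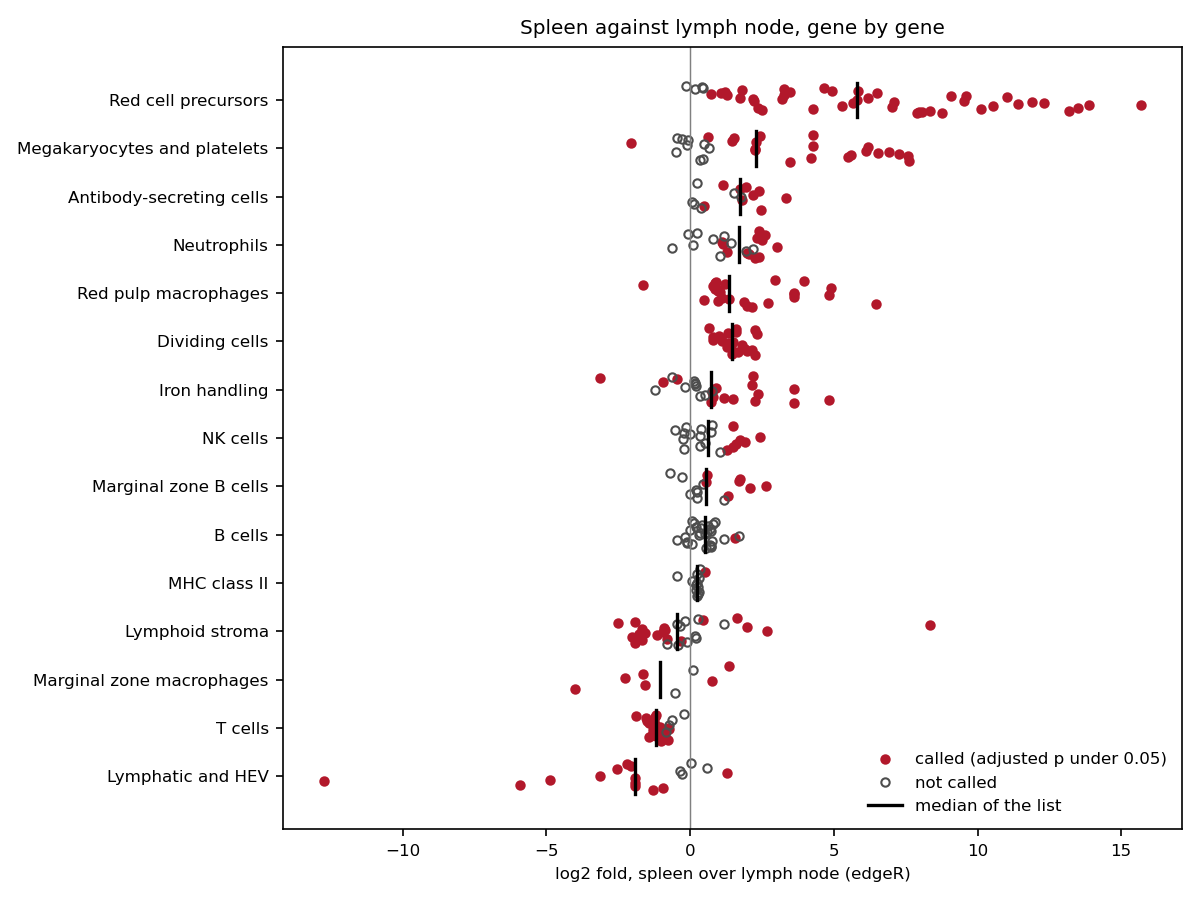
Log2 fold of spleen over LN from edgeR (horizontal axis) for each tested gene of 15 lists (rows), filled red where called and open where not, with the median of each list as a bar. Red cell precursor genes had a median of 5.82, B cell genes one of 0.54 and lymphatic and HEV genes one of -1.91.

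B cell genes were high in both spleen and LN. The summed level of 28 genes was 26279, 27836, 24462 and 21216 CPM in spleen, 10926 to 15759 CPM in LN and 1811 to 2609 CPM in thymus. Every spleen library was above every LN library for the sum. Of the 28, 28 were called higher and none lower than in the mean of the 11 tissues (median log2 fold 7.34). Against LN 1 was called higher and none lower (median 0.54) in the fit of all 12 tissues, and 19 were called higher where spleen and LN were fitted without the other tissues. The cause of that difference was not tested. Ighm, the constant region of IgM, measured 7458, 8494, 7983 and 6812 CPM in spleen and 2246 to 2976 CPM in LN (log2 fold 1.56, SE 0.47, edgeR adjusted p = 0.0132). Its levels did not overlap between the organs, and it was the 1 gene of the list called against LN.

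Marginal zone B cell genes were partly higher in spleen. Of 15, 7 were called higher and none lower than in LN (median log2 fold 0.56). Dtx1, a target of Notch2 signalling in these cells, measured 317.3, 280.0, 221 and 239 CPM in spleen and 79.0 to 121 CPM in LN (log2 fold 1.31, SE 0.34, edgeR adjusted p = 0.00364). Fcrl5, an Fc receptor-like protein of mouse marginal zone B cells, measured 48.3, 46.4, 33.7 and 39.7 CPM in spleen and 7.74 to 12.8 CPM in LN (log2 fold 2.08, SE 0.53, edgeR adjusted p = 0.00313). Neither overlapped between the organs. Cr2, a complement receptor of B cells and follicular dendritic cells, measured 675, 638, 482 and 548 CPM in spleen and 198 to 320.6 CPM in LN and was not called (log2 fold 1.18, SE 0.46, edgeR adjusted p = 0.0571). Fcer2a, the IgE receptor CD23 of follicular B cells, averaged 383 ± 31.3 CPM in spleen and 548 ± 119 CPM in LN (n = 4 each, adjusted p = 0.516 by edgeR).

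Genes of antibody-secreting cells were higher in spleen than in LN and uneven between spleens. The summed level of 15 genes was 4192, 6714, 3298 and 1762 CPM in spleen, 2052 to 3296 CPM in colon and 834 to 1275 CPM in LN. Replicate 4 was the lowest spleen, below every colon library and above every LN library. Of the 15, 9 were called higher and none lower than in LN (median log2 fold 1.74). Jchain, which joins the subunits of IgM and IgA, measured 951, 1269, 930.3 and 593 CPM in spleen and 89.8 to 209 CPM in LN (log2 fold 2.46, SE 0.53, edgeR adjusted p = 0.000501). Igha, the IgA constant region, measured 1699, 2059.8, 654 and 251.4 CPM in spleen and 44.97 to 175 CPM in LN (log2 fold 3.34, SE 0.83, edgeR adjusted p = 0.00258). Ighg2b, an IgG constant region, measured 291, 1432, 259.9 and 91.6 CPM in spleen and 80.1 to 149.5 CPM in LN (log2 fold 2.20, SE 0.51, edgeR adjusted p = 0.00123). Its call was lost without spleen replicate 2 (log2 fold 0.91, adjusted p = 0.113) and where spleen and LN were fitted alone (adjusted p = 0.0909).

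Within the heavy chain constant genes, the share of IgD was lower in spleen. Ighd took 12.2%, 8.93%, 9.77% and 12.9% of these counts in spleen and 25.1% to 34.9% in LN. The ranges did not overlap, and the exact two-sided permutation p was 0.0286, the smallest that 4 against 4 allows, or 0.314 after adjustment over 11 shares. With spleen and LN paired by library-number set, the difference lay between -22.7 and -16.1 percentage points (spleen minus LN), lower in spleen in 4 of 4 pairs (exact two-sided sign-flip permutation p = 0.125, the smallest that 4 pairs allow). Ighm took 65.6%, 59.1%, 74.5% and 80.9% in spleen and 58.7% to 60.8% in LN, with replicate 2 inside the range of LN. Igha took 14.96%, 14.3%, 6.10% and 2.99% in spleen and 0.915% to 4.46% in LN, with replicate 4 inside the range of LN. As a level, Ighd was not called against LN (log2 fold -0.16, SE 0.46, edgeR adjusted p = 0.866).

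**Figure D4:**
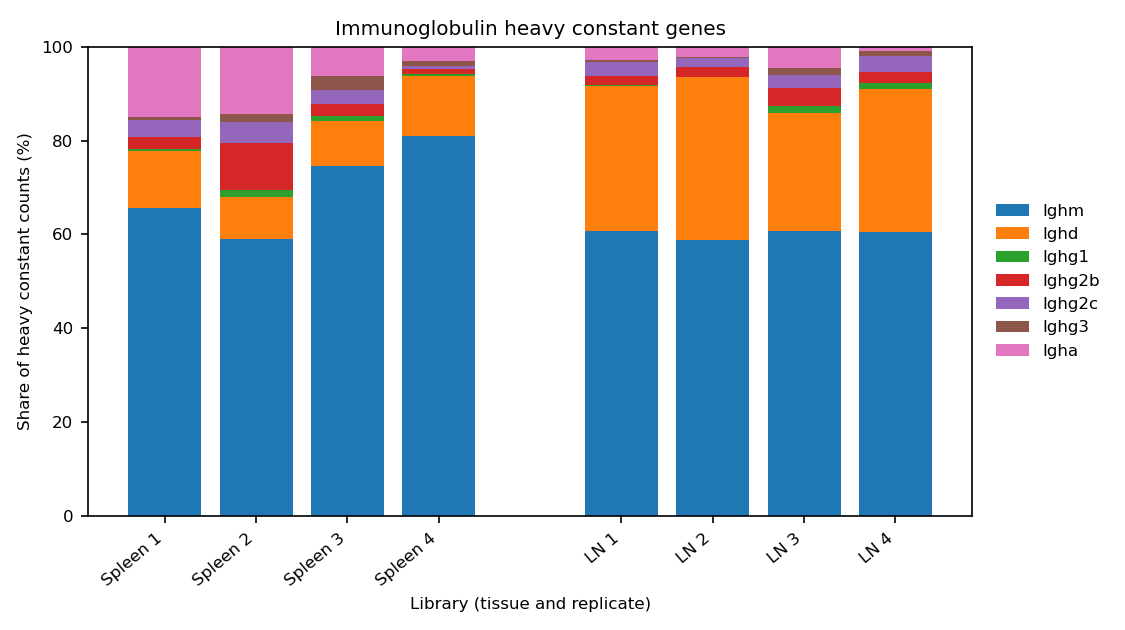
Share of counts over 7 immunoglobulin heavy chain constant genes (vertical axis, percent, bars stacked to 100) in the 4 spleen and 4 LN libraries. Ighd took 8.93% to 12.9% in spleen and 25.1% to 34.9% in LN, and the Igha share differed between spleens.

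Single variable segments dominated in some libraries. Ighv5-17 took 1.87%, 46.8%, 1.71% and 2.87% of heavy variable counts in spleen replicates 1 to 4. Igkv5-39 took 2.06%, 56.2%, 3.70% and 20.1% of kappa variable counts. Among the spleens both were highest in replicate 2, the library with the highest Ighg2b. Ighv5-9-1 took 17.6%, 0.392%, 0.423% and 1.14% and was highest in replicate 1. The same segments led single LN libraries. Ighv5-17 took 30.3% of heavy counts and Igkv5-39 43.9% of kappa counts in LN replicate 3, and Ighv5-9-1 took 9.54% of heavy counts in LN replicate 2. Grouped by library number, in sets of 12, each spleen library shares a set with 1 LN library. The leading heavy segment was the same in 3 of 4 spleen and LN pairs of the same set and in 0 of 12 pairs of different sets. The leading kappa segment was the same in 2 of 4 pairs of the same set and in 1 of 12 pairs of different sets. The labels do not say whether the libraries of a set came from the same mouse, and these pairs were examined after the values were seen. Segments of a family are near copies, so the division of reads among them is uncertain.

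T cell genes were lower in spleen than in LN and thymus. Of 27, 27 were called higher and none lower than in the mean of the 11 tissues (median log2 fold 4.68). Against LN none was called higher and 23 lower (median -1.17), and against thymus 2 were called higher and 22 lower (median -2.48). Their summed level was 2380.3, 2662, 2076 and 2012 CPM in spleen, 3882 to 5083 CPM in LN and 14768 to 18154 CPM in thymus, with no overlap. Cd3e, a chain of the T cell receptor complex, measured 82.0, 99.6, 75.8 and 77.3 CPM in spleen and 138 to 197 CPM in LN (log2 fold -1.02, SE 0.18, edgeR adjusted p = 3.29e-05). Cd4 and Cd8a, the co-receptors of helper and cytotoxic T cells, had log2 folds over LN of -1.42 and -1.17 (edgeR adjusted p = 0.0112 and 0.00622). Psmb11, a proteasome subunit of thymic cortex, had 3 counts over the 4 spleen libraries and 97.4 to 164 CPM in thymus.

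Natural killer (NK) cell genes were partly higher in spleen. Of 20, 7 were called higher and none lower than in LN (median log2 fold 0.62), and 17 were called higher and none lower than in thymus (median 1.87). Gzma, a protease of killer cells, measured 57.5, 48.1, 51.9 and 52.4 CPM in spleen and 7.80 to 12.3 CPM in LN (log2 fold 2.43, SE 0.45, edgeR adjusted p = 7.45e-05). Ncr1, the receptor NKp46, measured 10.6, 13.2, 9.47 and 16.2 CPM in spleen and 4.98 to 7.71 CPM in LN. The ranges of Ncr1 did not overlap, but it was not called (log2 fold 1.03, SE 0.46, edgeR adjusted p = 0.103). Without spleen replicate 4, 7 NK cell, 9 antibody-secreting cell, 7 marginal zone B cell and 20 megakaryocyte genes were called higher than LN, and 19 T cell genes lower.

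Genes of antigen presentation set spleen apart from most organs, with few calls against LN. Of 13 MHC class II genes, 13 were called higher and none lower than in the mean of the 11 tissues (median log2 fold 3.99), and against LN 1 was called higher and none lower (median 0.25). Their summed level was 17586, 14012, 14391 and 12413 CPM in spleen and 8644 to 13730.3 CPM in LN. Of 20 dendritic cell genes, 4 were called higher and 5 lower than in LN (median -0.08). Itgax, the integrin CD11c, averaged 134 ± 20.5 CPM in spleen and 63.2 ± 12.1 CPM in LN (n = 4 each, log2 fold 1.13, SE 0.23, edgeR adjusted p = 0.000279). Clec9a, a receptor by which cross-presenting dendritic cells sense dead cells, measured 41.8, 50.9, 34.0 and 43.9 CPM in spleen and 20.6 to 37.6 CPM in LN and was not called (log2 fold 0.65, SE 0.34, edgeR adjusted p = 0.176). Of 20 sinus endothelium genes, 3 were called higher and 9 lower than in LN (median log2 fold -0.48), with a summed level of 1178 ± 95.1 CPM in spleen and 1733 ± 122 CPM in LN (n = 4 each). Stab2, a scavenger receptor of sinus endothelium, measured 178, 219, 152 and 216 CPM in spleen and 84.9 to 112 CPM in LN (log2 fold 1.03, SE 0.34, edgeR adjusted p = 0.0212), a call lost without spleen replicate 4 (adjusted p = 0.0541) or LN replicate 3 (adjusted p = 0.0648).

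Among granulocyte genes, Ccr3, the eotaxin receptor of eosinophils, was higher in spleen than in each other tissue. It measured 61.4, 53.7, 38.5 and 60.8 CPM in spleen and 1.09 to 2.09 CPM in LN (log2 fold 5.14, SE 0.54, edgeR adjusted p = 3.54e-09). Prg2, the eosinophil major basic protein, measured 18.3, 14.8, 19.8 and 14.7 CPM in spleen and 2.29 to 4.21 CPM in thymus. Both were among the 136, and all spleen libraries were above all 44 others. Of 9 eosinophil genes these 2 passed that test, while against LN 6 were called higher and none lower (median log2 fold 2.95) and against thymus 4 were called higher and 1 lower (median 1.15). The 9 genes summed to 138, 125, 115 and 129.7 CPM in spleen and 111 to 161 CPM in lung, which overlapped. Of 22 neutrophil genes, 12 were called higher and none lower than in LN (median log2 fold 1.69), with 8 called higher without spleen replicate 4 and 6 without LN replicate 2 or without LN replicate 3. S100a9, a calcium-binding protein of neutrophils, measured 117, 78.3, 123 and 82.97 CPM in spleen and 4.91 to 37.3 CPM in LN (log2 fold 2.39, SE 0.68, edgeR adjusted p = 0.00795), with a log2 fold of 3.01 without LN replicate 1. Neutrophil genes summed to 424 CPM in spleen and 1502 CPM in lung.

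The LN libraries differed among themselves in fat. The summed level of 10 fat cell genes was 305.4, 300.1, 149.9 and 199 CPM in spleen and between 125 and 10179 CPM in LN. Mitochondrial transcripts summed to 13417 to 18919 CPM in spleen and 18369 to 42562 CPM in LN. The part of either in the LN comparison was not tested. Genes with no count in spleen included Krt5, a keratin, and Hoxc8, a positional factor, which averaged 5.61 and 9.42 CPM in LN. The log2 fold of Krt5 over LN was -11.71 with all libraries and -10.17 without LN replicate 3. Foxa1, Elf5, Cyp3a57 and Atp6v1b1, also among the genes with the largest folds below LN, likewise had smaller folds without that library.

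Few genes were lower in spleen than in each other tissue, and for 77 genes (0.293%) the highest spleen library lay below all 44 others. Of those with the largest least difference, Cxcl14, an epithelial chemokine, measured 0.286, 0.154, 0.331 and 0.235 CPM in spleen and averaged 1.69 CPM in liver, the lowest of the other tissues (least log2 difference -4.14, edgeR adjusted p = 0.00135). The number of such genes was 91 with all libraries and 60 without spleen replicate 1 or 52 without replicate 3. These calls rest on TMM scaling, which corrects for the make-up of a library. On the CPM scale the spleen mean was above that of another tissue in 13 of the 91, with liver as the lowest tissue in 11 of them, while for none of the 136 was it below that of another tissue. With DESeq2 size factors 94 genes were lower than each tissue, of which 90 were among the 91.

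**Figure D5:**
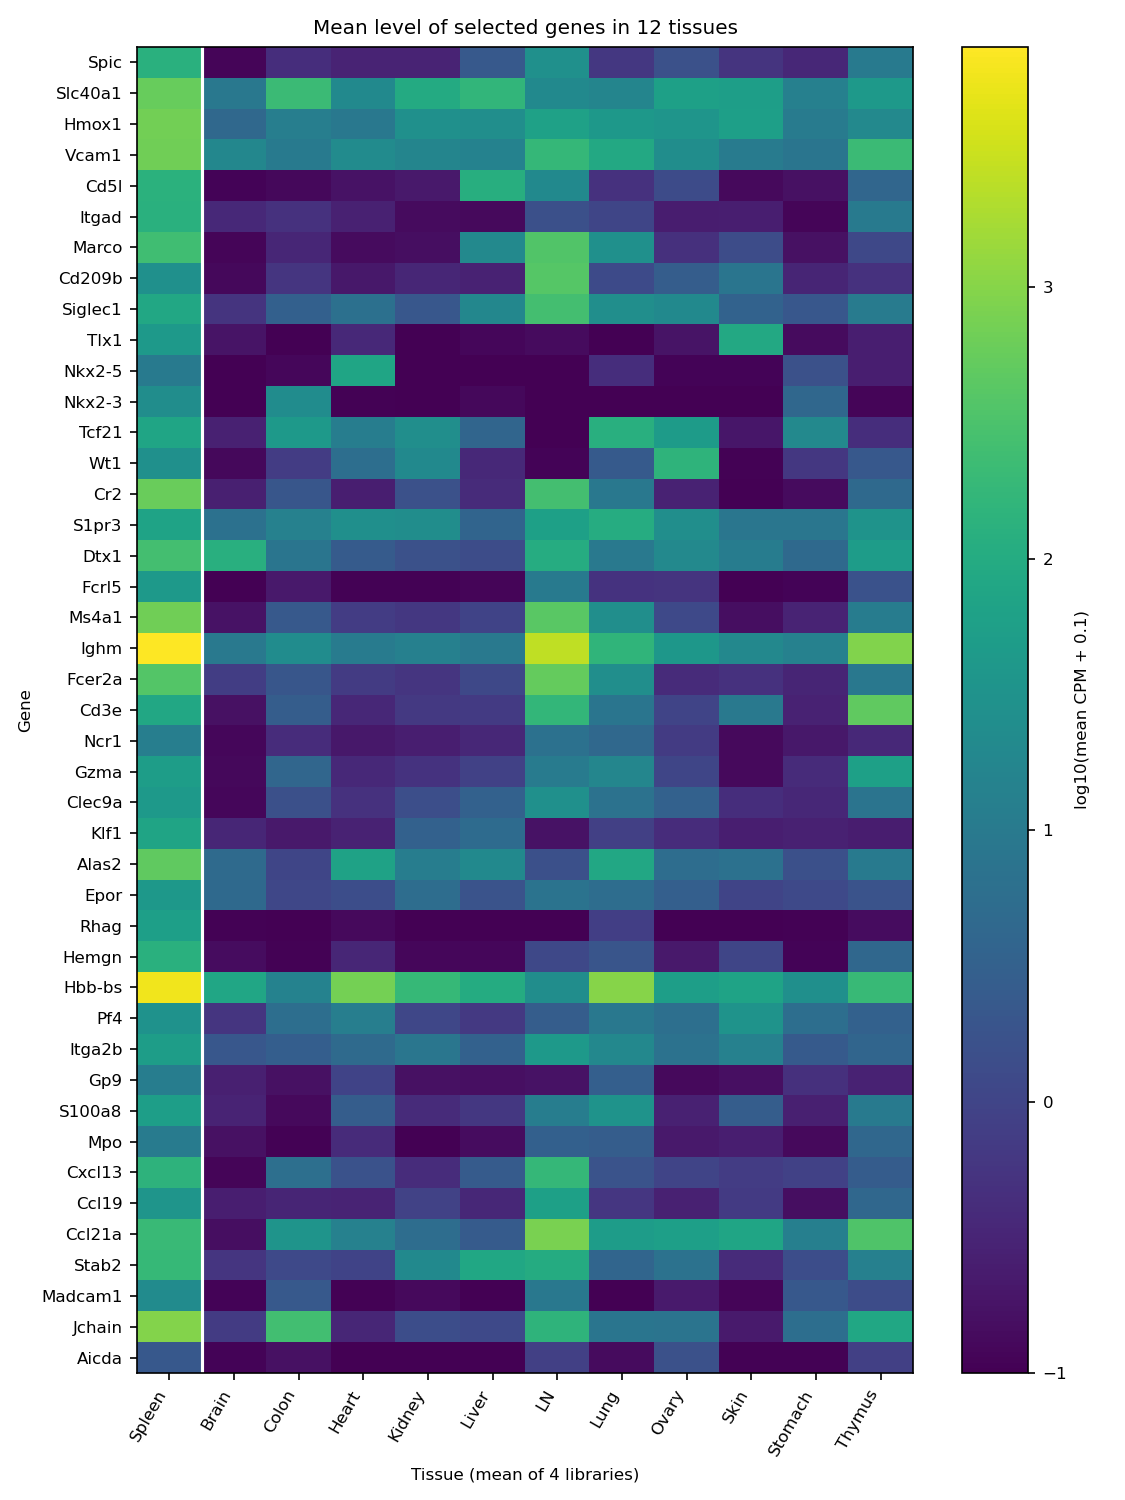
Mean level of selected genes (rows) in 12 tissues (columns, mean of 4 libraries each, spleen first) as log10 of CPM plus 0.1. Spic, Hmox1 and Vcam1 were highest in spleen, Cd209b and Siglec1 were higher in LN, and Nkx2-5, Tcf21 and Wt1 were higher in heart, lung and ovary.

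Most genes varied little between the 4 spleens. Of 11824 genes that averaged 5 CPM or more in spleen, the highest library was at least 5 times the lowest in 173 and at least 10 times in 104, and the median ratio was 1.36. Among the 136 genes higher in spleen than in each tissue, the highest library was at least 5 times the lowest in 38. In 47 of the 136 both replicates 1 and 2 lay below replicates 3 and 4. The share of all tested genes with this order was not computed, here or for the red cell precursor and dividing cell lists.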

How the data were processed

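The deposited table holds raw counts per gene, which the authors made, per the submitters' processing notes, with Trim Galore, FastQC, STAR and HTSeq on mm10. Their versions, the annotation and the strand setting were not given in the sources used here. RNA was polyA RNA, per the labels' protocols. A second, normalized table was not used. Of 53379 gene IDs, 53274 were matched to symbols in an annotation table.

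From these counts, CPM was computed on library totals. Folds came from edgeR 4.0.16 (R 4.3.3, limma 3.58.1): TMM scaling, low-count filter by tissue, terms for tissue and run code, quasi-likelihood tests and Benjamini-Hochberg adjustment over 26242 genes in 48 libraries. The mean of the 11 tissues weights each tissue equally. Genes higher (or lower) than each tissue were tested by the largest of the 11 two-sided p-values, with the same sign of fold required in all 11 comparisons. Of the 44 other libraries 8 carry another run code, and no spleen library does. The procedure was tested on simulated data, in which the test against each tissue missed small differences more often than large ones. No 2 libraries of a tissue were identical (72 pairs).

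Alternatives were other scaling, filters, DESeq2 1.42.0, other sets of libraries, a 2-fold minimum, a replicate block and leaving out each spleen library, or each LN or thymus library in its own comparison. Named genes were key genes, genes ranked by fold and up to 4 members per list by level. Slc11a1, C1qb, Cfp, Fcer1g, Dll1, Lyve1, Car1 and Rag1 were named after their values were seen. Members and lists were chosen with earlier results of these data known. Some genes of the lists are not reported here by name. Intervals and floors cover counting error only.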

Additional observations from a re-analysis of the deposited data

Results flagged for a closer look

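In groups of 4 spleen libraries, 123 levels, sums and shares were examined for 1 library standing apart by the gap to its neighbour, relative to the whole range. 15 did. 10 of them are genes that were named for having the widest range between the spleens, so their number says nothing against a chance rate. Of the other 113 items, 5 stood apart, where chance gives about 1 in 20. Most of the 15 concern the exocrine pancreas in spleen replicate 4. The summed level of its listed genes was 7170 CPM there, and that of the islet hormone genes 3.073 CPM. In the same library Ctrb1 stood at 1375 CPM, Pnlip at 851.8, Cela2a at 558.4, Cpa1 at 525.3, Cpb1 at 464.4, Cel at 414.4, Try4 at 336.2, Pnliprp1 at 307.6, Cela3b at 304.8 and Rnase1 at 253.4 CPM. Each of these 10 genes was under 0.2 CPM in the other 3 spleens.

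The other 3 concern single libraries. Listed hepatocyte genes summed to 58.82 CPM in spleen replicate 3 and to between 8.95 and 17.03 CPM in the others. Cd5l was at 167.6 CPM in replicate 1 and between 117 and 121 CPM in the others. Ighg2b took 9.965% of heavy chain constant counts in replicate 2 and between 1.09% and 2.56% in the others.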

How the results depend on the processing

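Of 5530 gene values over 25 alternatives, 5336 kept their side of the threshold, 164 lost the call, 22 gained one and 8 changed sign. A change of sign was counted only where the gene was called in the main or the alternative fit. Values called in neither are among the 5336 whatever their sign. Against a 2-fold minimum, calls fell to 7734 (4055 higher, 3679 lower) for the mean of the 11 tissues, 1914 (825 higher, 1089 lower) for LN and 6061 (2521 higher, 3540 lower) for thymus, with 41 genes higher and 15 lower than each tissue. Against LN, the 2-fold minimum left 12 red pulp macrophage, 5 antibody-secreting cell, 8 iron, 3 neutrophil and 1 NK cell genes called higher and 1 T cell and 4 stromal genes lower. With spleen and LN fitted alone, 11 NK cell genes were called higher. With the 44 other libraries as 1 group, 3904 genes were called against it (1783 higher, 2121 lower), and the cause was not tested. There the log2 fold changed sign for Cd209b (-0.072), Nkx2-5 (-0.61), Clu (-0.51), Tcf7 (-0.26), Cd8a (-0.23) and Car1 (-2.66). Without spleen replicate 4, that of Cela2a was -0.59 against the mean and -0.75 against thymus, and without any other library that was left out it reached at most 11.74 and 11.62. Leaving out each spleen library in turn gave 16159 to 16356 calls against the mean (8480 to 8675 higher, 7585 to 7745 lower). Leaving out each library of either organ gave 4587 to 6240 against LN (2151 to 2864 higher, 2436 to 3376 lower) and 12580 to 12992 against thymus (5424 to 5660 higher, 7084 to 7568 lower). Without each spleen library there were 111 to 133 genes higher and 52 to 67 lower than each tissue, with 60 lower without spleen replicate 1 and 52 without replicate 3. The labels do not tie the libraries of a number set to 1 mouse, and over all genes the deviations of spleen libraries from their tissue mean correlated above 0.1 with those of the same set in 6 of 44 pairs. With the number as a replicate block, 16892 genes were called against the mean (8833 higher, 8059 lower), 5619 against LN (2565 higher, 3054 lower), 13192 against thymus (5680 higher, 7512 lower), 124 higher than each tissue and 81 lower. Leaving out each spleen or LN library, chosen after seeing the data as was the pairing of IgD shares, gave a percent Ighd, spleen minus LN, of -21.2 to -17.9 percentage points. Genes higher than each tissue numbered 152 within run D812 alone (124 shared with the 136) and 180 with DESeq2 (130 shared). Genes of few counts are the least precise, and 4 libraries per tissue limit every test.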
